A study of Equus caballus with 17 samples.

Results

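The miR-34 and miR-449 family is a group of microRNAs (miRNAs), short RNAs that guide silencing complexes to messenger RNAs, whose members are best known from meiotic and later male germ cells. Its 5 members in the horse table were chosen by name: eca-miR-34a, eca-miR-34b-5p, eca-miR-34c, eca-miR-449a and eca-miR-449b, out of 274 annotated mature miRNAs. In the RefSeq annotation of the horse assembly TB-T2T, the genes of miR-34b and miR-34c lie next to each other inside the span of HOATZ, a cilia and flagella gene, with BTG4, LAYN and SIK2 close by. The genes of miR-449a and miR-449b lie next to each other inside CDC20B, beside MCIDAS and CCNO, both known to drive the making of motile cilia. The gene of miR-34a lies apart from both pairs, near GPR157 and SLC2A5.

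Members of the family share a seed, the stretch near the start of a miRNA that pairs with its targets, and so are thought to act on overlapping sets of messenger RNAs. In mammals miR-34b and miR-34c are cut from a shared primary transcript, miR-449a and miR-449b come from an intron of CDC20B, and miR-34a, a target of p53, is made in many tissues. In mice miR-34b, miR-34c and miR-449 become abundant when germ cells enter meiosis and are also made in cells with many motile cilia, and male mice that lack both the miR-34b/c and the miR-449 genes are infertile.

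Small RNA of horse testis was sequenced at 4 developmental stages that the labels call Infant (3 libraries), Pre-puber (3), Puber (3) and Adult (4), and small RNA of horse sperm was sequenced in 4 libraries. No treatment or genetic change is labelled for any group, and the labels give neither ages nor breeds. Infant 31a and 31b share a title number, as do Pre-puber 3a and 3b, and the labels do not say that other libraries come from separate animals, so p-values measure the spread between these libraries, which may be technical in part. RNA was extracted with TRIzol in both tissues, but sperm RNA had a shorter DNase treatment followed by phenol and chloroform, so tissue and purification cannot be told apart when sperm is set against testis.

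Counts assigned to annotated mature miRNAs numbered 9534925 to 12373245 in Infant, 8108537 to 13117711 in Pre-puber, 3958857 to 6037880 in Puber, 2178789 to 4618707 in Adult and 1481718 to 2261418 in Sperm libraries. Levels below are counts per 1000000 annotated counts after TMM scaling (trimmed mean of M values), written CPM. TMM scales libraries on the assumption that most miRNAs agree between them, so a CPM can differ from a plain share of the library. Pre-puber 14 stood apart from Pre-puber 3a and 3b in 4 of the 5 members, and Sperm 2 stood apart from the other Sperm libraries, so results that rest on either are also given without it. Markers of other cells moved with stage: the summed level of the stromal and smooth muscle miRNAs miR-145, miR-199a-5p and miR-199b-5p was 32329 to 51209 CPM in Infant, 31496 to 37770 in Pre-puber, 23655 to 31471 in Puber and 14974 to 18816 in Adult testis. Of these 3, miR-199a-5p and miR-199b-5p were called lower in Adult than in Infant testis, against 25.5% of tested miRNAs. miR-145 went the other way, with a log2 difference of 0.53, and was not called. Also called lower were miR-150 of 4 blood miRNAs and the epithelial miR-205, and the endothelial miR-126-5p was not called. The part of those cells in the results was not tested.

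miR-34c was the most abundant member from Puber on. In Infant 31a, 31b and 30 it stood at 45.7, 24.0 and 14.5 CPM, and among Pre-puber libraries 3a had 37.7, 3b had 70.5 and 14 had 2621 CPM. It stood at 10414, 20294 and 17030 CPM in Puber 10, 11 and 19 and at 40856, 39942, 34476 and 32500 CPM in Adult 13, 20, 33 and 4. Infant libraries and Pre-puber 3a and 3b overlapped, Pre-puber 14 lay between them and the Puber libraries, and every Adult library lay above every Puber library. Among annotated miRNAs ordered by count, miR-34c ranked 110 to 125 in Infant libraries, 103, 115 and 39 in Pre-puber 3b, 3a and 14, 11 to 18 in Puber and 7 to 10 in Adult libraries.

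miR-34b-5p, cut from the same primary transcript as miR-34c, followed the same order at a far lower level. It stood at 1.08, 1.67 and 0.25 CPM in Infant 31a, 31b and 30, which rest on 6, 14 and 2 counts, and the Pre-puber libraries 3a, 3b and 14 had 1.48, 2.57 and 54.6 CPM. Puber 10, 11 and 19 had 252, 611 and 513 CPM, and Adult 13, 20, 33 and 4 had 1330.3, 1347, 1011 and 1093 CPM. As for miR-34c, Pre-puber 14 was the 1 Pre-puber library far above the Infant range, and Puber and Adult libraries did not overlap.

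**Figure D1:**
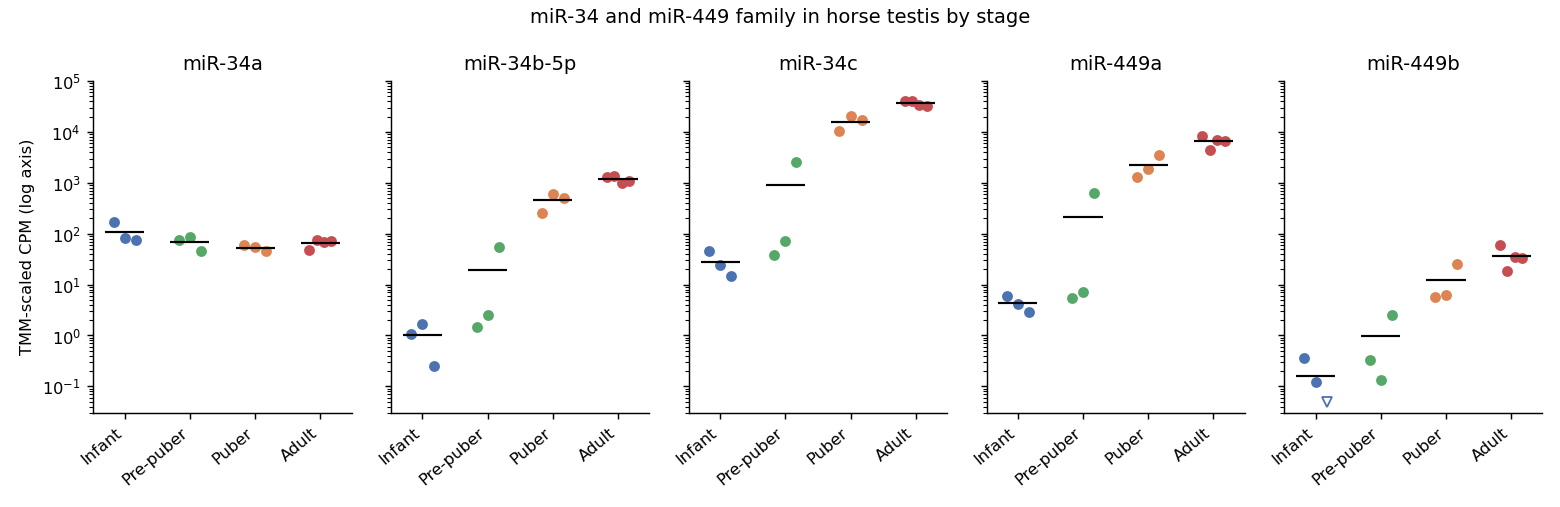
TMM-scaled CPM (log axis) of the 5 members in each of the 13 testis libraries, by stage from Infant to Adult; points are libraries, bars are stage means, and the open triangle marks the count of 0 for miR-449b in Infant 30. The panels of 4 members climb from Infant to Adult with Pre-puber 14 between its stage and Puber, for example 2621 CPM of miR-34c, and miR-34a stays between 45.1 and 167 CPM.

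miR-449a, from the CDC20B intron, was the second most abundant member in Puber and Adult testis. Infant 31a, 31b and 30 had 5.94, 4.18 and 2.88 CPM, and the Pre-puber libraries 3a, 3b and 14 had 5.53, 7.18 and 619 CPM. Puber 10, 11 and 19 had 1279.8, 1896 and 3538 CPM, and Adult 13, 20, 33 and 4 had 8192, 4394, 6946 and 6589 CPM. The lowest Adult library, Adult 20, lay above the highest Puber library, Puber 19.

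miR-449b, its neighbour in the same intron, was the least abundant member at every testis stage. Infant 31a, 31b and 30 held 2, 1 and 0 counts, which is 0.360, 0.119 and 0 CPM. The Pre-puber libraries 3a, 3b and 14 had 0.337, 0.135 and 2.52 CPM, Puber 10, 11 and 19 had 5.78, 6.26 and 25.6 CPM, and Adult 13, 20, 33 and 4 had 60.7, 18.2, 34.2 and 34.0 CPM. Puber 19 lay above Adult 20, so these stages overlapped for miR-449b, unlike for miR-449a. Because the Infant libraries together held 3 counts, the ratio of summed counts per effective library size is given with its exact 95% counting interval: 284 (96.9 to 1381) for Adult over Infant, 93.7 (31.6 to 458) for Puber over Infant and 5.98 (1.82 to 31.0) for Pre-puber over Infant.

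miR-34a, the member outside both pairs, did not share this course. Infant 31a, 31b and 30 had 167, 84.2 and 75.6 CPM, and the Pre-puber libraries 3a, 3b and 14 had 75.4, 84.5 and 46.6 CPM. Puber 10, 11 and 19 had 59.7, 54.2 and 45.1 CPM, and Adult 13, 20, 33 and 4 had 48.7, 76.7, 67.9 and 70.8 CPM. Its highest value was in Infant 31a, and Pre-puber 14, high for the other 4 members, held the second lowest miR-34a value of all testis libraries.

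Taking the 4 testis stages as one factor, miR-34b-5p, miR-34c, miR-449a and miR-449b differed between stages, and miR-34a did not pass the threshold. The test was edgeR's quasi-likelihood F test with Benjamini-Hochberg adjustment over the 184 tested miRNAs, all 5 members among them, and an adjusted p under 0.05 was called. The adjusted p was 0.000465 for miR-34b-5p, 0.000595 for miR-34c, 0.00109 for miR-449a, 0.000576 for miR-449b and 0.114 for miR-34a. The background was high, since 47.8% of all tested miRNAs passed the same test. In bulk tissue a change in the number of cells of a type and a change in RNA per cell cannot be told apart.

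Adult against Infant testis gave the widest span. miR-34c rose by 10.36 ± 1.59 log2 units (SE), which is 1317-fold (adjusted p = 0.000201, edgeR), and miR-34b-5p rose by 10.20 ± 1.45 (adjusted p = 0.000161, edgeR). miR-449a rose by 10.56 ± 1.79 (adjusted p = 0.000329, edgeR) and miR-449b by 7.84 ± 1.24 (adjusted p = 0.000208, edgeR). miR-34a had a log2 difference of -0.72 ± 0.34 with an adjusted p of 0.0947, and its Adult and Infant libraries overlapped. Thus 4 of 5 members were called higher and 0 lower, against a background of 26.1% of tested miRNAs called higher and 25.5% lower, and the median of all 184 differences was -0.14. The same 4 members had groups that did not overlap, against 50% of tested miRNAs. Leaving out 1 library kept these 4 calls, but the log2 difference of miR-449b became 8.88 without Infant 31a and 7.25 without Infant 30, and that of miR-34b-5p became 10.86 without Infant 31b. miR-34a passed the threshold as lower without Infant 30 (-0.94, adjusted p = 0.0470), with upper quartile scaling (-1.13, adjusted p = 0.0390) and with the predicted hairpins added to the fit (-2.39, adjusted p = 0.00105), a setting in which the median of all entries was 5.64.

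Puber against Infant testis shares its Infant libraries with that comparison. miR-34c was higher by 9.15 log2 units, miR-34b-5p by 8.81, miR-449a by 9.02 and miR-449b by 6.29, with edgeR adjusted p-values of 0.000749, 0.000749, 0.00111 and 0.00119 in that order. miR-34a fell by 1.04 ± 0.37 log2 units (adjusted p = 0.0425, edgeR), averaging 53.0 ± 7.35 CPM in Puber and 108.8 ± 50.2 CPM in Infant libraries (SD, n = 3 each). These 4 members called higher stand beside a background of 21.2%, and the 1 called lower beside 15.2%. None of the 5 members had overlapping groups, against 51.1% of tested miRNAs without overlap. The miR-34a call was lost without Infant 31a (-0.55, adjusted p = 0.255), and also without Pre-puber 3a or 3b or without any 1 of the 3 Puber libraries, with adjusted p-values up to 0.132 in those cases. It was also lost when libraries of a shared title number were summed (-0.79, adjusted p = 0.136), with RLE scaling (-0.94, adjusted p = 0.0557), with the annotated total (-0.38, adjusted p = 0.421), with limma-voom (-0.95, adjusted p = 0.0615) and in the 2 groups alone (-1.12, adjusted p = 0.0648). For miR-449b the log2 difference was 7.34 without Infant 31a, 5.70 without Infant 30 and 5.25 without Puber 19, and for miR-34b-5p it was 9.50 without Infant 31b.

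**Figure D2:**
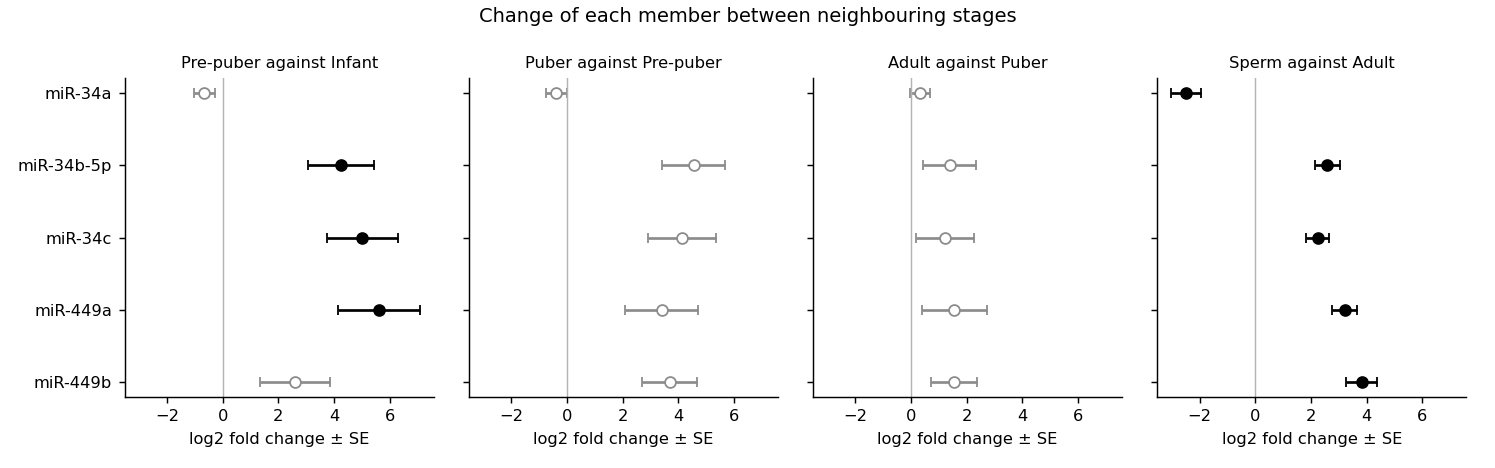
Log2 fold change (horizontal axis, edgeR, bars are standard errors) of each member (vertical axis) between neighbouring testis stages and in Sperm against Adult. Filled points have an adjusted p under 0.05. In Sperm against Adult miR-34b-5p, miR-34c, miR-449a and miR-449b lie between 2.24 and 3.82, while miR-34a lies at -2.48.

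Pre-puber against Infant testis asks when the climb begins, and its answer rested on 1 library. miR-34c was higher by 5.02 ± 1.27 log2 units, miR-34b-5p by 4.25 ± 1.18 and miR-449a by 5.60 ± 1.47, with edgeR adjusted p-values of 0.0117, 0.0179 and 0.0146. miR-449b (2.60, adjusted p = 0.154) and miR-34a (-0.66, adjusted p = 0.224) did not pass. That is 3 of 5 members called higher, against a background of 15.8% called higher and 8.15% called lower, yet none of the 5 had groups that did not overlap, against 35.9% of tested miRNAs. Relative to the mean of Pre-puber 3a and 3b, Pre-puber 14 held 48.4 times as much miR-34c, 26.9 times as much miR-34b-5p, 97.4 times as much miR-449a, 10.7 times as much miR-449b and 0.582 times as much miR-34a.

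Without Pre-puber 14, 0 members were called in Pre-puber against Infant by edgeR, where 13.6% of miRNAs were still called higher. The log2 differences were then 0.95 for miR-34c (adjusted p = 0.18), 0.98 for miR-34b-5p (adjusted p = 0.318) and 0.56 for miR-449a (adjusted p = 0.445). Leaving out an Infant library also took single calls away: miR-34b-5p had an adjusted p of 0.0646 without Infant 31a and 0.0601 without Infant 30, with log2 differences of 4.31 and 3.76, and miR-449a had 0.0518 without Infant 31b. Without Infant 31b the log2 difference of miR-34b-5p was 4.92. In the 2 groups fitted alone 0 of the 5 members passed, against 15.5% of tested miRNAs, and with limma-voom 0 passed, against 19.6%.

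Puber against Pre-puber testis mirrored this dependence. With every library, the log2 differences were 4.56 ± 1.13 for miR-34b-5p (adjusted p = 0.0652), 4.13 ± 1.22 for miR-34c (0.0815), 3.41 ± 1.31 for miR-449a (0.208) and 3.69 ± 0.98 for miR-449b (0.0815), with p-values adjusted by edgeR. None of the 5 members was called, with 1.09% of all tested miRNAs called; 4 members had an unadjusted p under 0.05, against 18.5% of tested miRNAs. DESeq2 called 3 members, against 8.79% of miRNAs with an adjusted p, and limma-voom called 4, against 10.3%. These 4 members still had groups that did not overlap, against 26.6% of tested miRNAs. Without Pre-puber 14 the log2 differences were 7.85 for miR-34b-5p (adjusted p = 3.4e-06), 8.22 for miR-34c (6.9e-07), 8.48 for miR-449a (6.9e-07) and 5.52 for miR-449b (0.00149), all called by edgeR, against a background of 13% called higher.

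Adult against Puber testis gave positive log2 differences that did not pass the threshold. They were 1.22 ± 1.03 for miR-34c (adjusted p = 0.496), 1.38 ± 0.94 for miR-34b-5p (0.443), 1.54 ± 1.17 for miR-449a (0.475), 1.55 ± 0.83 for miR-449b (0.314) and 0.32 for miR-34a (0.626). edgeR called 0 members and 0% of all tested miRNAs; 0 members and 18.5% of all tested miRNAs had an unadjusted p under 0.05, DESeq2 called 0 members and 5.49% of miRNAs, and limma-voom called 0 of either. Groups did not overlap for miR-34b-5p, miR-34c and miR-449a, against 23.9% of tested miRNAs. Fitted on the Puber and Adult libraries alone, 3 members passed, against 10.8% of the miRNAs tested in that fit. Without Pre-puber 14 miR-449a passed (1.53, adjusted p = 0.0342), against 7.61% of tested miRNAs.

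Adult against Pre-puber testis showed 4 of 5 members higher, against a background of 12.5% called higher and 15.2% called lower. The log2 difference was 5.94 for miR-34b-5p (adjusted p = 0.00361), 5.34 for miR-34c (0.0107), 4.96 for miR-449a (0.0211) and 5.25 for miR-449b (0.00361), all by edgeR. These 4 had groups that did not overlap, against 34.2% of tested miRNAs. Without Pre-puber 14 the values were 9.22, 9.42, 10.01 and 7.06 in the same order, against a background of 19% called higher. miR-34a was at -0.06 (adjusted p = 0.928), and its sign turned with RLE scaling (0.078) or scaling by the annotated total (0.37). With the predicted hairpins added it was called lower, at -2.35 (adjusted p = 0.00550), where the median of all entries was 1.23.

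Other miRNAs reported from meiotic or later male germ cells moved in Adult testis as well. Their list was drawn up with earlier results of these data known, so its counts are no independent support. Of 10 in the table, 9 were called higher in Adult than in Infant testis and 0 lower, against 26.1% and 25.5% of tested miRNAs, with a median log2 difference of 4.67 against -0.14 over all tested miRNAs. The X-linked miR-506 family members miR-509a-5p (6.09, adjusted p = 6.2e-05, edgeR) and miR-514a (5.37, adjusted p = 0.000409, edgeR) were among them. In the younger testis 5 of the 10 were called higher in Pre-puber than in Infant testis, against 15.8% of tested miRNAs, and for miR-509a-5p, at 5.69 with an adjusted p of 0.000186 in edgeR, the Pre-puber and Infant libraries did not overlap. The summed level of the 10 was 5648 to 7289 CPM in Infant, 10119 to 39482 in Pre-puber, 32731 to 41553 in Puber and 24216 to 33455 in Adult libraries. Of 5 miRNAs of undifferentiated spermatogonia in the table, miR-106a and miR-20a were called higher and miR-146a lower in Adult against Infant testis.

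The family's share of the library shows the same course without TMM scaling. All 5 members together took 0.00773% to 0.0128% of annotated counts in Infant libraries. They took 0.0136%, 0.0146% and 0.294% in Pre-puber 3a, 3b and 14, 1.03% to 2.79% in Puber and 4.38% to 7.19% in Adult libraries. In Sperm libraries they took 7.91%, 23.0%, 5.77% and 6.30%, so 1 in 4 Sperm libraries lay far above Adult and the other 3 within or near its range.

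The make-up of the family also turned over. miR-34a supplied 73.8% to 81.1% of family counts in Infant libraries and 62.6%, 51.2% and 1.39% in Pre-puber 3a, 3b and 14. It supplied 0.213% to 0.497% in Puber, 0.0965% to 0.176% in Adult and 0.00318% to 0.00818% in Sperm libraries. miR-34c supplied 15.6% to 21.0% in Infant, 80.5% to 88.8% in Puber, 80.7% to 87.3% in Adult and 68.0% to 76.9% in Sperm libraries. miR-449a supplied 9.60% to 16.4% in Adult and 20.3% to 29.1% in Sperm libraries. The make-up of Pre-puber 14 was closer to that of Puber than of Infant libraries, with 78.4% miR-34c and 18.5% miR-449a.

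**Figure D3:**
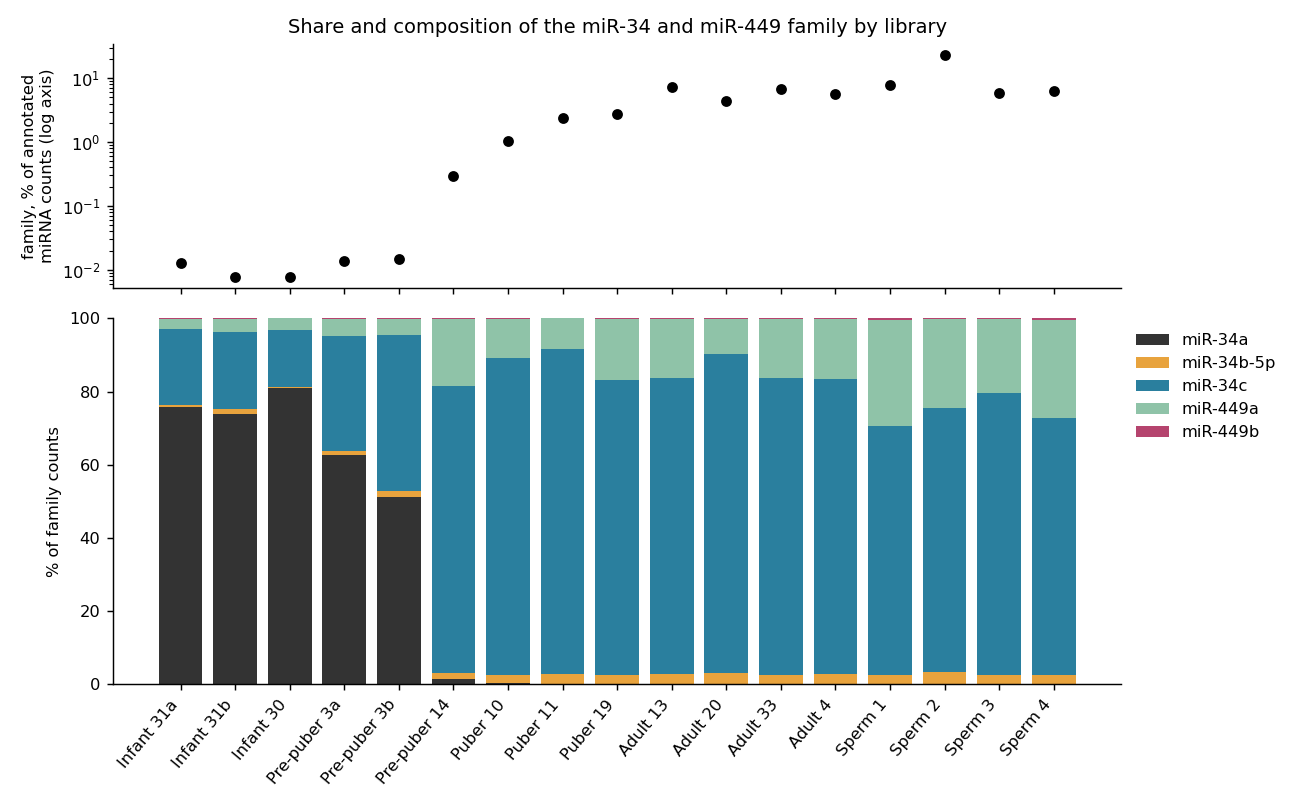
Top, the 5 members together as a percentage of all annotated counts in each library (log axis); bottom, each member as a percentage of the family's counts, with libraries ordered Infant, Pre-puber, Puber, Adult, Sperm. miR-34a fills 73.8% to 81.1% of the family in Infant libraries and miR-34c 80.7% to 87.3% in Adult libraries.

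Sperm against Adult testis, fitted on those 8 libraries alone with 162 miRNAs tested, moved every member. In that fit miR-34c stood at 88899, 259674, 81003 and 91293 CPM in Sperm 1, 2, 3 and 4, against 31539, 26916, 23394 and 28048 CPM in Adult 13, 20, 33 and 4. miR-34b-5p stood at 3419, 11878, 2816 and 3379 CPM in Sperm, against 1027, 908, 686 and 943 CPM in Adult libraries. By count miR-34c was the first of all annotated miRNAs in Sperm 2 and ranked 3, 4 and 3 in Sperm 1, 3 and 4. Both were higher in every Sperm library than in any Adult library, and Sperm 2 held 2.98 times the mean miR-34c and 3.71 times the mean miR-34b-5p of the other 3 Sperm libraries.

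The miR-449 pair differed further. miR-449a stood at 38024, 88029.9, 21389 and 35024 CPM in Sperm 1, 2, 3 and 4, against 6324, 2961, 4713 and 5687 CPM in Adult 13, 20, 33 and 4. miR-449b stood at 441, 514, 175 and 458 CPM in Sperm, against 46.8, 12.3, 23.2 and 29.4 CPM in Adult libraries. miR-34a went the other way, at 8.04, 11.4, 8.62 and 6.62 CPM in Sperm, against 37.6, 51.7, 46.0 and 61.1 CPM in Adult libraries. Its Sperm values rest on 5 to 14 counts, and no member had overlapping groups.

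The log2 difference of Sperm against Adult was 2.24 ± 0.42 for miR-34c (adjusted p = 2.8e-06, edgeR) and 2.59 ± 0.46 for miR-34b-5p (adjusted p = 1.1e-06, edgeR). It was 3.21 ± 0.44 for miR-449a (adjusted p = 3.9e-09), 3.82 ± 0.56 for miR-449b (adjusted p = 1.9e-08) and -2.48 ± 0.54 for miR-34a (adjusted p = 3.7e-05), all by edgeR. The 4 higher members and the 1 lower member stand beside a background in which 42% of tested miRNAs were called higher and 39.5% lower. Non-overlap was common too, at 74.7% of tested miRNAs, so a call here is near what most miRNAs showed. Without Sperm 2 miR-34c was at 1.64 and miR-34b-5p at 1.82, and without Adult 20 miR-449a was at 2.55 and miR-449b at 3.15; all 4 kept their calls.

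**Figure D4:**
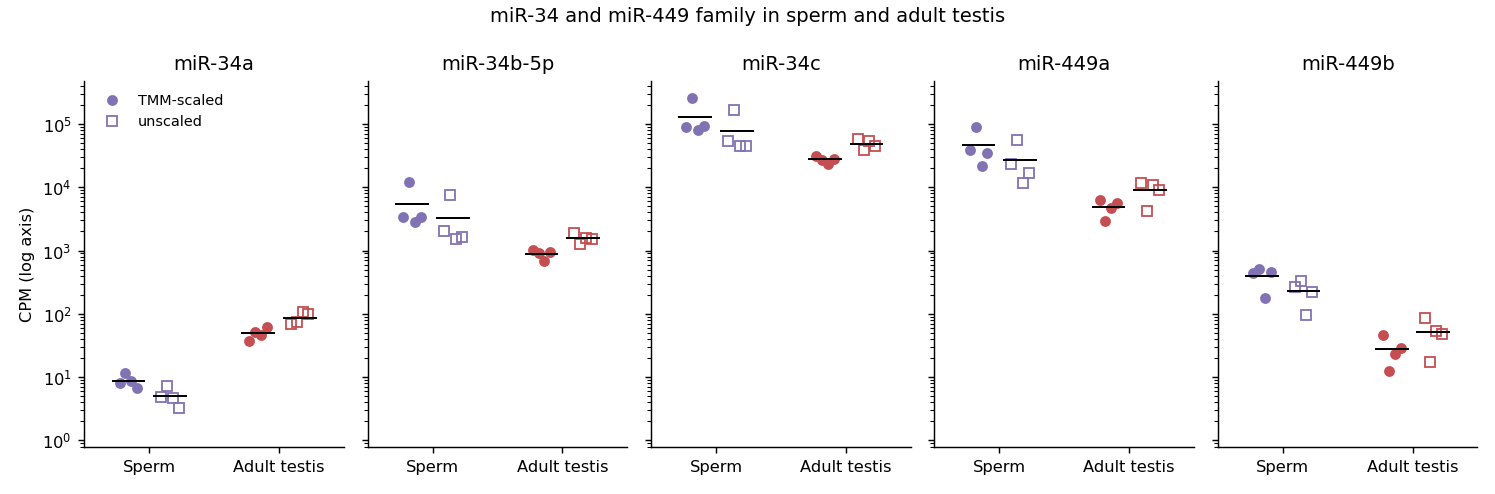
Level of each member in the 4 Sperm and 4 Adult libraries (log axis), as TMM-scaled CPM (filled circles) and as CPM of the annotated total without further scaling (open squares). After TMM scaling no member overlaps between groups, while unscaled miR-34c runs from 44221 to 165900 CPM in Sperm and from 38221 to 58181 CPM in Adult libraries.

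The sperm result for miR-34c and miR-34b-5p depended on scaling. TMM assumes that most miRNAs agree, yet in this fit 42% of tested miRNAs were called higher and 39.5% lower. Its factors were 0.484 to 0.639 in Sperm and 1.42 to 2.30 in Adult libraries, so the TMM differences rest on an assumption not met here. Scaled by the annotated total alone, miR-34c stood at 53784, 165900 (Sperm 2), 44373 and 44221 CPM in Sperm 1, 2, 3 and 4, against 58181, 38221, 53904 and 45308 CPM in Adult 13, 20, 33 and 4, and the groups overlapped. Apart from Sperm 2, every Sperm library lay within the Adult range of miR-34c. On this scale miR-34b-5p stood at 2069, 7589, 1543 and 1637 CPM in Sperm 1, 2, 3 and 4, against 1289 to 1894 CPM in Adult libraries. The differences below include Sperm 2, and this scaling was not fitted without it. The log2 difference was then 0.66 for miR-34c (adjusted p = 0.131) and 1.03 for miR-34b-5p (adjusted p = 0.0715), while miR-449a (1.59, adjusted p = 0.00396), miR-449b (2.15, adjusted p = 0.00221) and miR-34a (-4.09, adjusted p = 1.1e-06) kept their edgeR calls. Going from TMM to the total moved the median difference of all 162 miRNAs to -1.61, against 0.06 with TMM. Relative to that median, miR-34c was at 2.27 with the total and 2.19 with TMM. A change of scaling shifts all differences by about the same amount, so these values could hardly differ and decide nothing about the rise. With all 17 libraries in 1 fit miR-34c was at 1.47 (adjusted p = 0.107), and with the predicted hairpins added at 1.43 (adjusted p = 0.0570).

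Markers of other cells also differed between Sperm and Adult testis. The stromal and smooth muscle miRNAs summed to 65.8 to 152 CPM in Sperm, against 10091 to 14697 CPM in Adult libraries, and all 3 were called lower. miR-205, an epithelial miRNA, was at 337 to 1191 CPM in Sperm, against 1.27 to 1.60 CPM in Adult libraries (log2 difference 8.90, adjusted p = 2.0e-17, edgeR). Of 4 blood miRNAs in the table, miR-451 was called higher in Sperm, and the endothelial miR-126-5p was called lower. Of 9 tested miRNAs reported from meiotic or later male germ cells, 3 were called higher in Sperm than in Adult testis (miR-122, miR-18a and miR-191a) and 6 lower. The background was 42% called higher and 39.5% lower. miR-508-5p, miR-509b and miR-514a had no count in any Sperm library. Of 5 miRNAs of undifferentiated spermatogonia, 3 were called higher in Sperm (miR-146a, miR-146b-5p and miR-20a) and 0 lower, with a median log2 difference of 1.51. The part of these cells in the family's values was not tested.

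Ratios between members of 1 library do not depend on depth or scaling, and 4 ratios were compared in 3 contrasts by exact two-sided permutation tests with Benjamini-Hochberg adjustment over the 12 tests. The smallest p that 4 libraries against 4 or 4 against 3 allow here was 0.0286, and none of the 12 had an adjusted p under 0.05. After adjustment over 12 tests, 1 ratio at that smallest p could not pass by itself, so a failure to pass decides little. How often ratios of other miRNA pairs lack overlap was not tested. Levels of single miRNAs lacked overlap in 74.7% of cases in Sperm against Adult, 50% in Adult against Infant and 23.9% in Adult against Puber. miR-34b-5p and miR-34c kept close to each other: per 100 counts of miR-34c there were 3.48 to 4.57 counts of miR-34b-5p in Sperm, against 2.93 to 3.37 in Adult libraries. That is a difference of mean log2 ratio of 0.27 without overlap (p = 0.0286, adjusted p = 0.0571, exact permutation test). In Adult against Infant the difference was -0.08 (p = 0.943, exact permutation test), with Infant miR-34b-5p at 2 to 14 counts. In Adult against Puber it was 0.20 (p = 0.114, exact permutation test).

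The ratio between the gene pairs was higher in sperm without overlap, though its adjusted p did not pass. Per 100 counts of miR-34c there were 42.8, 33.9, 26.4 and 38.4 counts of miR-449a in Sperm 1, 2, 3 and 4, against 20.1, 11.0, 20.1 and 20.3 in Adult 13, 20, 33 and 4. Every Sperm library lay above every Adult library, and the difference of mean log2 ratio was 1.01, or 2.01-fold (p = 0.0286, adjusted p = 0.0571, exact permutation test). Adult against Puber gave 0.37 (p = 0.371, exact permutation test) and Adult against Infant 0.05 (p = 0.971, exact permutation test). miR-449b over miR-449a was higher in Sperm than in Adult by 0.80 on the log2 scale with overlapping groups (p = 0.0571, adjusted p = 0.0980, exact permutation test). In Adult against Infant it was -2.94 (p = 0.0286, adjusted p = 0.0571, exact permutation test), where the Infant side rests on 0 to 2 counts of miR-449b, and in Adult against Puber 0.14 (p = 0.714, exact permutation test).

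miR-34a relative to miR-34c was lower in Adult than in Infant or Puber and lower in Sperm than in Adult libraries, without overlap between groups, though no adjusted p was under 0.05. No share of other ratios without overlap is at hand to set beside this. Per 100 counts of miR-34c there were 351 to 521 counts of miR-34a in Infant libraries, 0.265 to 0.573 in Puber, 0.119 to 0.218 in Adult and 0.00441 to 0.0106 in Sperm libraries. The differences of mean log2 ratio were -11.16 for Adult against Infant, -0.96 for Adult against Puber and -4.49 for Sperm against Adult, each with p = 0.0286 and an adjusted p of 0.0571 in the exact permutation test.

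**Figure D5:**
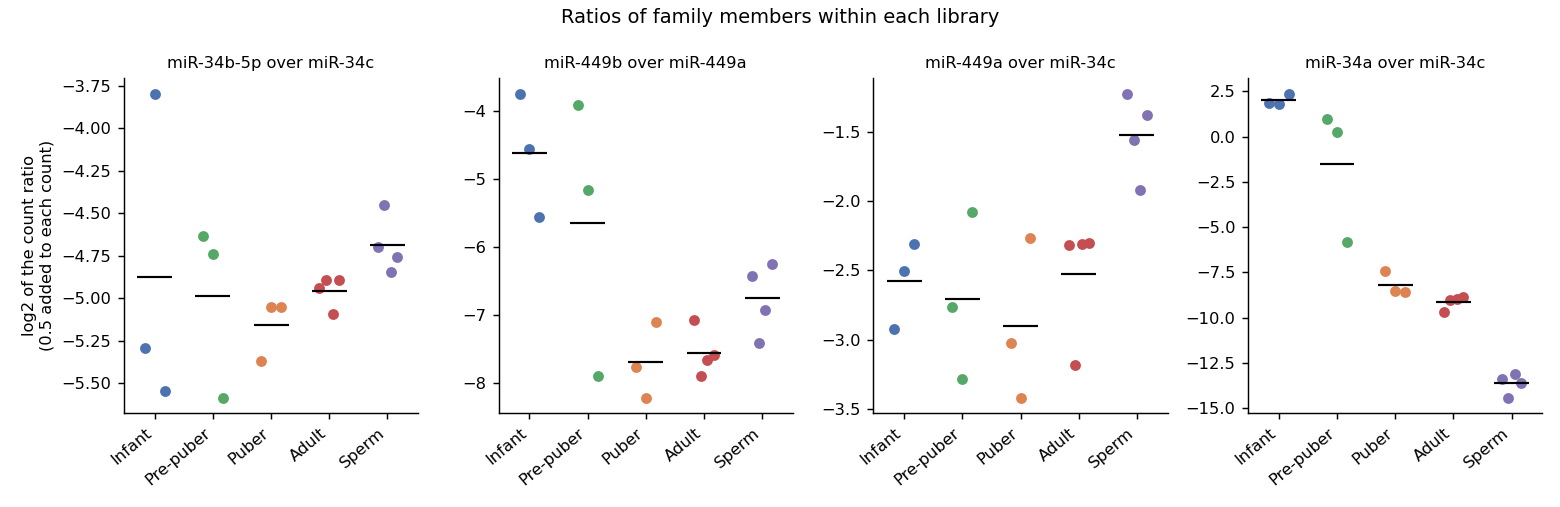
Log2 ratio of counts within a library (0.5 added to each count) for miR-34b-5p over miR-34c, miR-449b over miR-449a, miR-449a over miR-34c and miR-34a over miR-34c; each point is a library, by group. miR-449a over miR-34c in Sperm lies above all Adult libraries, where Adult 20 is lowest at -3.18.

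The miRNAs whose testis pattern was most like that of miR-34c were picked by Pearson correlation of log2(CPM + 1) over the 13 testis libraries, among 122 miRNAs outside the family that averaged at least 50 CPM in some stage. These r values describe the same libraries and stages, which fall into a low and a high set, and carry no p. Within the family r with miR-34c was 0.996 for miR-34b-5p, 0.995 for miR-449a, 0.936 for miR-449b and -0.60 for miR-34a. Over the 7 Puber and Adult libraries alone it was 0.995, 0.881, 0.742 and 0.377 in the same order.

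Outside the family the 6 most alike were miR-340-5p (r = 0.970), miR-8909 (0.969), miR-767-5p (0.964), miR-105 (0.959), miR-8908j (0.940) and miR-8908g (0.937). Over the 7 Puber and Adult libraries their r was 0.785, 0.766, 0.729, 0.735, 0.537 and 0.877, and 2 of the 6 would be picked there. In sperm 3 of the 6 were called higher, as miR-34c was, and 3 lower, against 42% and 39.5% of tested miRNAs. That split is near the background. miR-340-5p was higher in Sperm than in Adult by 3.72 log2 units (adjusted p = 1.6e-10), miR-8908j by 1.76 (adjusted p = 0.000109) and miR-8908g by 1.11 (adjusted p = 0.0209), by edgeR. miR-767-5p was lower by 6.93 log2 units (adjusted p = 1.3e-10), miR-105 by 4.55 (adjusted p = 3.7e-08) and miR-8909 by 1.95 (adjusted p = 0.000459), by edgeR. miR-105 and miR-767 are neighbours on the X chromosome in humans. miR-8909 stood at 0, 0.0674 and 48.0 CPM in Pre-puber 3b, 3a and 14 and miR-767-5p at 1.22, 0.944 and 37.2 CPM. miR-340-5p differed less, at 1887, 1354 and 2550 CPM in the same libraries. Pre-puber 14 was among the libraries used to pick these miRNAs, so its high values here are no separate observation.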

How the data were processed

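Small RNA libraries of horse testis (13) and sperm (4) were used. Reads were trimmed with Trimmomatic and the build was EquCab3.0, per the submitters' processing notes; the aligner and the counter are not given in the sources used here. In 1 deposited table the authors give raw read counts per miRNA entry and RPM (reads per 1000000 reads) values, which equal the counts divided by each library's total over all 1763 entries to within 0.005. Of these entries 302 are annotated and 1461 are predicted hairpins. A mature name listed more than once was represented by the entry with the highest summed counts, which gives 274 miRNAs; each member has 1 entry. Besides the pooled counts, 1 other column was not matched to any library and was left aside.

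Counts of annotated miRNAs were tested as deposited with edgeR 4.0.16 (filterByExpr by group, TMM, quasi-likelihood F test) in R 4.3.3, in 1 fit of the 13 testis libraries and 1 fit of Sperm and Adult. Benjamini-Hochberg adjustment ran over all tested miRNAs, with a threshold of 0.05. Standard errors are the log2 fold change divided by the square root of F. DESeq2 1.42.0 and limma 3.58.1 (voom) served as alternatives, with other scalings, no filter, hairpins added, libraries of a shared title number summed and each library left out. Ratios were tested with scipy 1.17.1. On simulated counts with known changes, the edgeR step recovered most of the changed miRNAs. Those counts held few changed miRNAs, a fixed spread and no library standing apart, so they do not vouch for the fits here.

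Members and marker lists were chosen with earlier results of these data known. Named miRNAs were the members, the listed markers and the 6 most like miR-34c; entries with a member's seed could not be sought, because sequences were not used here. RefSeq (TB-T2T) served for gene names and neighbours only. Counts of 0 are given as 0 CPM, and the ratios within a library had 0.5 added to each count. Intervals are exact (95%) and cover counting error only, since reads without molecular identifiers are not independent molecules. Total annotated counts ran from 1481718 to 13117711 per library. The table does not state whether reads that match several entries were shared between them, so members of similar sequence could exchange reads.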

Additional observations from a re-analysis of the deposited data

Results flagged for a closer look

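In groups of 4 libraries, a value was singled out when its gap to the nearest other library, divided by the range of the group, was above Dixon's 95% critical value for 4 libraries. Of 18 sets of values checked, 3 were singled out. Chance singles out about 1 in 20 only if values are normal and sets independent, so no excess is read from this number. Sets of members that move together, such as miR-34c and miR-34b-5p, are not independent. Sperm 2 was far above the other Sperm libraries for miR-34c, at 259674 CPM (gap over range 0.942), and for miR-34b-5p, at 11878 CPM (0.933). Adult 20 was far below the other Adult libraries in the log2 ratio of miR-449a over miR-34c, at -3.18 (0.982). The groups of 3 libraries, and so Pre-puber 14, were not tested in this way.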

How the results depend on the processing

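Counts of members called moved by over 1.5 times as follows. In Pre-puber against Infant (3) they were 0 with limma-voom, 0 with the 2 groups alone and 0 to 3 with 1 library left out. In Puber against Pre-puber (0) they were 2 with RLE scaling, 3 with the annotated total, 3 with upper quartile scaling, 1 without a filter, 3 with DESeq2, 4 with limma-voom, 3 with hairpins added (miR-34a among them, as lower) and 0 to 4 with 1 library left out. In Adult against Puber (0) they were 3 with the 2 groups alone and 0 to 1 with 1 library left out. In Sperm against Adult (5) the annotated total gave 3. Smaller moves were 2 with DESeq2 and 4 with hairpins added in Pre-puber against Infant, 4 with RLE scaling, the annotated total, DESeq2, limma-voom, title numbers summed or the 2 groups alone in Puber against Infant (5), 3 with DESeq2 and 5 with upper quartile scaling or hairpins in Adult against Infant (4), 3 with DESeq2 or the 2 groups alone and 5 with hairpins in Adult against Pre-puber (4), 3 with DESeq2 and 5 with hairpins over the stages (4), and 4 with hairpins or all 17 libraries in Sperm against Adult. DESeq2 gave no adjusted p for miR-34c in testis. The 4 members other than miR-34a kept their direction in every comparison and setting run. miR-34a turned in Adult against Infant with the annotated total (0.27), where the median of all miRNAs was 0.82. In Adult against Pre-puber it turned with RLE scaling (0.078), the annotated total (0.37), DESeq2 (0.078), title numbers summed (0.080) and the 2 groups alone (0.0754), and ran from -0.28 to 0.10 with 1 library left out. Among ratios in Adult against Infant, miR-34b-5p over miR-34c was 0.054 with title numbers summed and -0.41 to 0.46 with 1 library left out, and miR-449a over miR-34c was -0.0076 and -0.12 to 0.27. miR-449b over miR-449a in Adult against Puber ran from -0.12 to 0.44 with 1 library left out. The cause was not tested. Of the 6 miRNAs most like miR-34c, 4 stayed with Spearman correlation, 3 over all 17 libraries and 2 over the 7 Puber and Adult libraries, the last chosen after seeing the data, as was the background without Pre-puber 14. No paired analysis was possible because Adult and Sperm share only the number 4 and the testis stages share none. Depth limits miR-449b and miR-34b-5p in Infant and miR-34a in Sperm, which rest on 0 to 14 counts a library.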
